A study of Ovis aries with 15 samples.

Results

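The kidney recovers sugar, phosphate, sulfate, organic acids and water from the filtrate, and most of that work is done by the proximal tubule. Its brush border carries cotransporters that use the sodium gradient kept by the Na+/K+-ATPase of the opposite, basolateral membrane, and water follows the solutes through aquaporin channels. The genes described here were 8 genes of this system, SLC5A2, SLC5A1, SLC5A12, SLC34A1, SLC13A1, SLC13A3, MIOX and AQP1, chosen by gene name as the rows of 8 of the 25592 genes in the deposited table. The rule names the genes and uses none of their measured values, although the group was chosen with earlier results of these data known. Of the 8, SLC13A3 is known mainly from the basolateral membrane and MIOX is a cytosolic enzyme, so the group is wider than apical transport. All 8 passed the filter on low values and were tested.

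The libraries were RNA-seq libraries of kidney tissue from male crossbred sheep (Dorper by Small-tailed Han) 4 months old, with 5 libraries in each of 3 groups. The CON group was fed the basal diet for 21 d. The AFB1 group received 500 µg of aflatoxin B1 per kg of dry matter, a fungal toxin of stored feed, and the AFB1_CUR group received the same 500 µg per kg of aflatoxin B1 together with 800 mg of curcumin, the polyphenol of turmeric, per kg of dry matter. No group received curcumin alone, and whole tissue was sequenced, so fewer cells of a type and less RNA per cell cannot be told apart for any gene below.

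The total read count per library ranged from 50255295 to 68747047. The library labelled AFB1 replicate 1 stood apart. Its mean log2(FPKM + 1) over 20 hepatocyte genes was 10.1, against 1.71 to 2.79 in the other 14 libraries, and its score over 7 proximal tubule markers, LRP2 and CUBN among them, was 3.05, against 5.39 to 6.76. It is therefore shown apart, the groups were compared over the other 14 libraries, and values from all 15 are given beside the main results. The markers fit the labelled tissue in those 14, with all 7 proximal tubule markers at an FPKM of at least 1 in every library. Liver transcripts were higher in AFB1 replicates 2 and 3 than in the rest of the 14. ALB was at 23.9 and 11.8 FPKM in these, against at most 4.48 elsewhere. Of the 20 hepatocyte genes, 16 and 15 reached an FPKM of 1 in them, against 8 to 13 elsewhere. Among the 14 libraries, AFB1 replicate 2 and AFB1_CUR replicate 2 had the highest scores over 6 immune cell markers (4.06 and 4.81, against 1.63 to 2.79 elsewhere). They also had the lowest proximal tubule scores (5.47 and 5.39, against 5.67 to 6.76).

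In the CON group the genes spanned more than 2 orders of magnitude in FPKM, a level scaled to gene length and library depth. MIOX was the most abundant, with 983.5 FPKM ± 365.9 (SD, n = 5) and rank 28 of 25592 genes. SLC5A12 (400.3 ± 171.1), SLC13A3 (376.3 ± 75.3) and SLC5A2 (364.9 ± 35.0) followed at ranks 110, 118 and 122, and their ranges over the 5 libraries overlapped. SLC34A1 (212.0 ± 95.8) and AQP1 (197.5 ± 133.5) stood at ranks 213 and 236, again with overlapping ranges. SLC13A1 (24.6 ± 11.3, rank 2169) and SLC5A1 (5.96 ± 2.39, rank 6848) were the low members, and neither overlapped its neighbour in this order. The 8 genes together took 0.282% to 0.729% of the counts in the 14 libraries and 0.0087% in AFB1 replicate 1.

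The positions below are those of the deposited table, whose starts and ends are identical to those of the RefSeq annotation of ARS-UI_Ramb_v3.0 for 99.6% of the 24947 genes matched by symbol and for all 8 genes described here. Counts were given per gene, with no division into exons, introns or UTRs. SLC5A2 lay on chromosome 24 from 28036376 to 28043263 (plus strand), SLC5A1 on chromosome 17 from 70476907 to 70530505 (plus strand), and SLC5A12 on chromosome 15 from 56119012 to 56164995 (minus strand). SLC34A1 lay on chromosome 5 from 36589815 to 36603206 (plus strand), SLC13A1 on chromosome 4 from 89066212 to 89167038 (minus strand), and SLC13A3 on chromosome 13 from 75235911 to 75322562 (minus strand). MIOX lay on chromosome 3 from 225718191 to 225720889 (plus strand), and AQP1 on chromosome 4 from 66969825 to 66981186 (minus strand). SLC5A2 shared 1235 bases with RUSF1, a gene on the other strand that was listed at 8.62 to 12.5 FPKM in the 14 libraries. Whether the counting used strand is not given in the sources used here, so reads of the shared stretch may have been given to either gene.

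Glucose is recovered first by SLC5A2 (SGLT2), the high-capacity cotransporter of the early proximal tubule. SLC5A2 was at 331.2, 351.2, 338.6, 392.6 and 410.8 FPKM in CON replicates 1 to 5, at 162.5, 320.0, 293.1 and 405.3 in AFB1 replicates 2 to 5, and at 389.5, 151.8, 330.2, 361.5 and 259.1 in AFB1_CUR replicates 1 to 5. It was listed at 0.0399 in AFB1 replicate 1, from 6 reads. The CON libraries lay close together, whereas AFB1 replicate 2 and AFB1_CUR replicate 2 fell far below all the others. The log2 fold change of AFB1 against CON was -0.28 (SE 0.31) and that of AFB1_CUR against CON was -0.34 (SE 0.30), and in both comparisons the groups overlapped. The values from all 15 libraries were -0.60 and -0.33. With 1 library left out at a time, they ran from -0.54 to -0.06 and from -0.47 to -0.14.

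SLC5A1 (SGLT1), the high-affinity glucose cotransporter of the later proximal tubule and of the intestine, was far less abundant. It was at 7.7, 7.8, 3.5, 3.2 and 7.6 FPKM in the CON libraries, at 11.0, 1.7, 1.6 and 2.2 in AFB1 replicates 2 to 5, and at 6.7, 1.8, 2.5, 3.3 and 13.2 in the AFB1_CUR libraries. AFB1 replicate 2 stood above every CON library while AFB1 replicates 3 to 5 stood below every CON library. The log2 fold change of AFB1 against CON was -0.59 (SE 0.66, adjusted p = 0.965 by edgeR's quasi-likelihood test) and -0.44 with all 15 libraries. With 1 library left out at a time it ran from -1.65 to -0.33. Without AFB1 replicate 2 it was -1.65, past the screening thresholds, which were an unadjusted p under 0.05 with a change of over 1.5-fold (unadjusted p = 0.0172), but with an adjusted p of 0.999. Likewise, the value of AFB1_CUR against AFB1 was 0.42 (SE 0.65) with that library and 1.48 without it (unadjusted p = 0.0282, adjusted p = 0.840). SLC5A1 was the only one of the 8 genes whose level in AFB1 replicate 1, 3.7 FPKM, lay within the range of the other libraries. The ratio of SLC5A2 to SLC5A1 in FPKM ranged from 43.1 to 121 in CON, was 14.8 in AFB1 replicate 2 and 184 to 188 in AFB1 replicates 3 to 5, and ranged from 19.6 to 134 in AFB1_CUR.

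**Figure D1:**
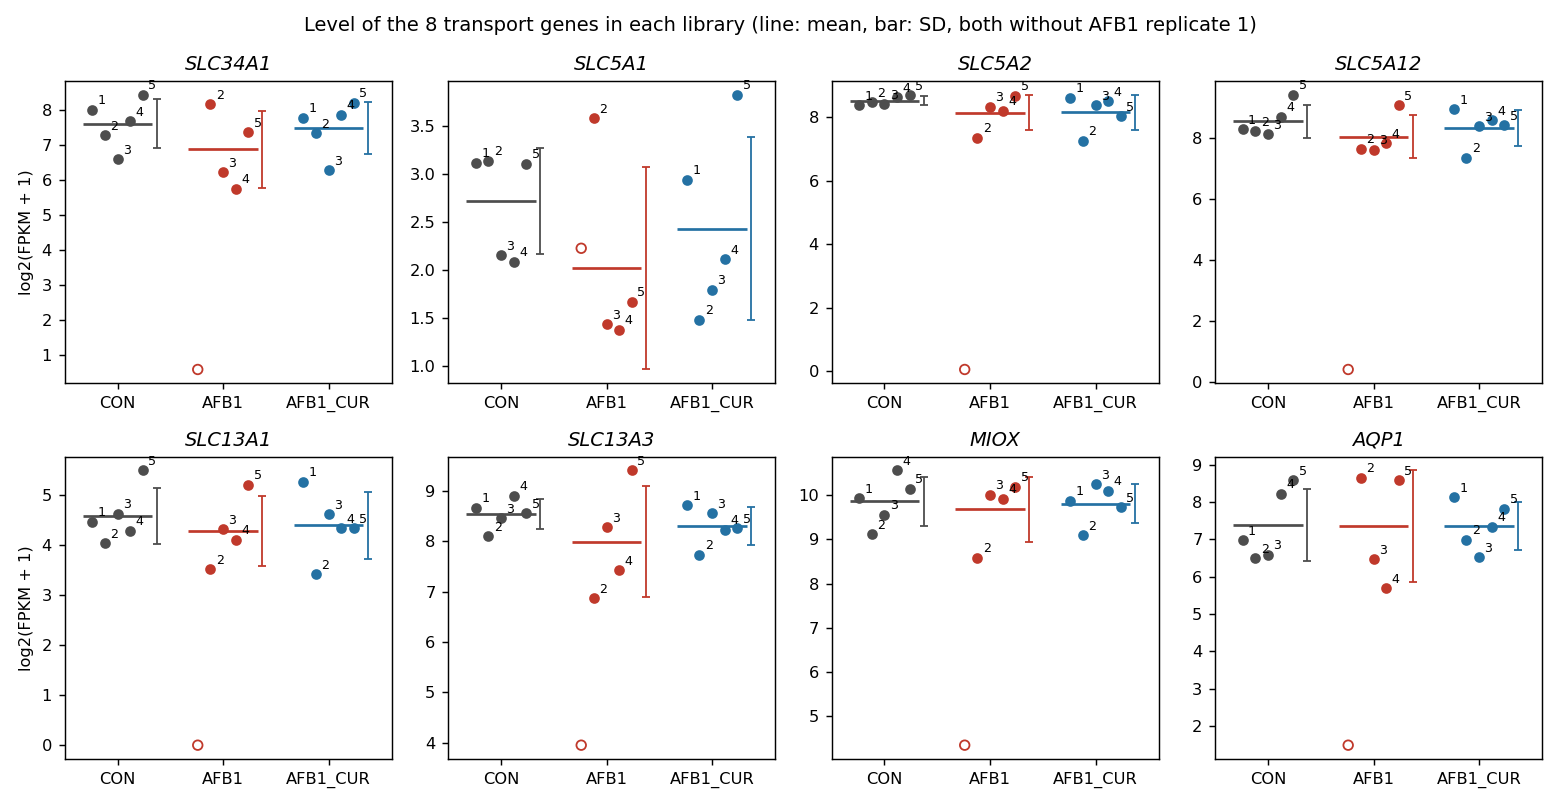
Level of each of the 8 genes in every library, as log2(FPKM + 1) on the vertical axis, by group on the horizontal axis, with the replicate number beside each point. The hollow point is AFB1 replicate 1, the line is the group mean and the bar its SD, both over the 14 other libraries. The groups overlap in every panel, AFB1 replicate 1 is lowest in 7 of 8, and AFB1 replicate 2 is low for SLC5A2 and MIOX but high for SLC34A1, SLC5A1 and AQP1.

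SLC5A12 (SMCT2) takes up lactate and other monocarboxylates at the brush border. It was at 313.3, 299.2, 278.8, 419.7 and 690.4 FPKM in the CON libraries, at 201.0, 196.0, 229.6 and 546.8 in AFB1 replicates 2 to 5, at 496.9, 164.0, 337.8, 384.4 and 342.6 in the AFB1_CUR libraries, and at 0.3 in AFB1 replicate 1. Thus 3 of 4 AFB1 libraries lay below the whole CON group and the fourth, AFB1 replicate 5, lay above 4 of 5 CON libraries. The log2 fold change of AFB1 against CON was -0.41 (SE 0.43) and -0.73 with all 15 libraries. With 1 library left out at a time it ran from -0.99 to -0.13. Without AFB1 replicate 5 it was -0.99, past the screening thresholds (unadjusted p = 0.0238, adjusted p = 0.722 by edgeR's quasi-likelihood test).

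SLC34A1 (NaPi-IIa) is the main phosphate cotransporter of the proximal brush border and a target of parathyroid hormone. It was at 258.0, 155.4, 96.4, 204.4 and 346.0 FPKM in the CON libraries, at 287.2, 74.0, 53.0 and 163.8 in AFB1 replicates 2 to 5, at 218.7, 161.9, 77.3, 233.3 and 294.5 in the AFB1_CUR libraries, and at 0.5 in AFB1 replicate 1. AFB1 replicates 3 and 4 were below every CON library, and AFB1 replicate 2 was above 4 of 5. Its log2 fold change was -0.58 (SE 0.50) for AFB1 against CON and 0.41 (SE 0.50) for AFB1_CUR against AFB1. With 1 library left out at a time, these values ran from -1.07 to -0.31 and from 0.13 to 0.89, without a change of sign. They were -0.90 and 0.73 with all 15 libraries.

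SLC13A1 (NaS1) recovers sulfate from the filtrate. It was at 21.2, 15.4, 23.8, 18.5 and 44.0 FPKM in the CON libraries, at 10.4, 18.9, 16.3 and 36.1 in AFB1 replicates 2 to 5, and at 37.5, 9.7, 23.5, 19.2 and 19.2 in the AFB1_CUR libraries, with no reads in AFB1 replicate 1. CON replicate 5, AFB1 replicate 5 and AFB1_CUR replicate 1 were the high libraries of their groups, and both replicate 2 libraries of the aflatoxin-fed groups were the lowest of all 14. SLC13A3 (NaDC3), which carries succinate, 2-oxoglutarate and other dicarboxylates, was at 404.3, 271.9, 351.3, 478.2 and 375.8 FPKM in the CON libraries, at 115.6, 308.6, 169.9 and 675.8 in AFB1 replicates 2 to 5, at 417.9, 210.8, 375.9, 299.0 and 304.1 in the AFB1_CUR libraries, and at 14.4 in AFB1 replicate 1. The AFB1 group held both the lowest and the highest SLC13A3 level of the 14 libraries. Its log2 fold change of AFB1 against CON was -0.20 (SE 0.44) and -0.50 with all 15 libraries. With 1 library left out at a time it ran from -0.98 to 0.09, so that its sign could turn. It was -0.98 without AFB1 replicate 5 (unadjusted p = 0.0139, adjusted p = 0.722 by edgeR's quasi-likelihood test), again past the screening thresholds.

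MIOX, myo-inositol oxygenase, opens the pathway that breaks down inositol and is made almost only in the proximal tubule. It was at 972.7, 553.7, 752.8, 1509 and 1130 FPKM in the CON libraries, at 383.5, 1032, 970.3 and 1168 in AFB1 replicates 2 to 5, at 941.1, 544.5, 1218, 1102 and 850.7 in the AFB1_CUR libraries, and at 19.4 in AFB1 replicate 1. Without AFB1 replicate 2, the AFB1 libraries lay inside the CON range. The log2 fold change of AFB1 against CON was -0.14 (95% interval -0.96 to 0.68), and -0.45 with all 15 libraries.

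AQP1, the water channel of both membranes of the proximal tubule and of the thin descending limb, had the largest SD of log2(FPKM + 1) of the 8 genes over the 14 libraries (0.964), although SLC5A1 had the larger ratio of highest to lowest level (8.27 against 7.88). AQP1 was at 124.5, 89.1, 95.2, 298.1 and 380.9 FPKM in the CON libraries, at 401.4, 87.8, 50.9 and 380.9 in AFB1 replicates 2 to 5, at 278.9, 125.7, 90.6, 160.6 and 225.7 in the AFB1_CUR libraries, and at 1.8 in AFB1 replicate 1. In both the CON and the AFB1 group the libraries split into high and low levels with a wide gap between them. AQP1 was the only member with a higher fitted level in AFB1 than in CON, with a log2 fold change of 0.21 (95% interval -1.13 to 1.54), a sign that turned with all 15 libraries (-0.10) and on the log2(FPKM + 1) scale (-0.02).

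Compared with the CON group, none of the 8 genes passed the screening thresholds in the AFB1 group, where 1.76% of the 13162 tested genes passed. Of their log2 fold changes, 7 were below 0 and 1 above, with a median of -0.26, against 0.02 over all tested genes. Leaving out AFB1 replicate 2 gave 5 below 0 and a median of -0.090, leaving out CON replicate 5 gave 6 below 0 and a median of -0.17, and leaving out AFB1 replicate 5 gave 8 below 0 and a median of -0.62. Between AFB1_CUR and AFB1, 0 of 8 passed, against 0.935% of tested genes. There 4 genes lay above 0 and 4 below, with a median of 0.01. Single libraries set this balance, with 8 of 8 above 0 and a median of 0.38 without AFB1 replicate 5, 7 of 8 above 0 (0.20) without AFB1_CUR replicate 2, and 6 of 8 below 0 without AFB1 replicate 2 (-0.17) or AFB1_CUR replicate 1 (-0.11). Between AFB1_CUR and CON, 0 of 8 passed, against 1.63% of tested genes, and all 8 lay below 0, from -0.34 (SLC5A2) to -0.14 (MIOX), with a median of -0.23. Without CON replicate 5 the 8 genes divided into 4 above and 4 below 0 with a median of -0.017, and the median was -0.068 without AFB1_CUR replicate 2, -0.37 without CON replicate 2 and -0.44 without AFB1_CUR replicate 1. These comparisons share groups, so their values are given side by side only. In no comparison did the groups lack overlap for any of the 8 genes, whereas 1.54%, 0.676% and 0.722% of tested genes showed no overlap in the order given above.

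After Benjamini-Hochberg adjustment over all tested genes, 0 genes (0.0%) were called in each comparison by the quasi-likelihood test of edgeR. At an unadjusted p under 0.05 it had 664, 303 and 723 genes, none of them among the 8, and DESeq2 called 17, 3 and 1 genes after adjustment, again none of the 8. The adjusted p of the 8 genes lay between 0.965 and 0.978 for AFB1 against CON, at 1.0 for AFB1_CUR against AFB1, and between 0.847 and 0.963 for AFB1_CUR against CON. The 95% intervals were wide. For AFB1 against CON they ran from -0.96 to 0.39 for SLC5A2, the narrowest, and from -1.99 to 0.82 for SLC5A1, the widest, so a fall by 1.5-fold lay inside the interval of all 8 genes and a rise by 1.5-fold inside that of 5 (SLC5A1, SLC13A1, SLC13A3, MIOX and AQP1). With all 15 libraries, the members' median was -0.53 for AFB1 against CON, with 8 of 8 below 0. It was 0.29 for AFB1_CUR against AFB1, with 7 of 8 above 0, and -0.22 for AFB1_CUR against CON, with 8 of 8 below 0. In that fit 0 of 8 passed in any comparison, against 639, 525 and 131 of 13193 tested genes in the same order.

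**Figure D2:**
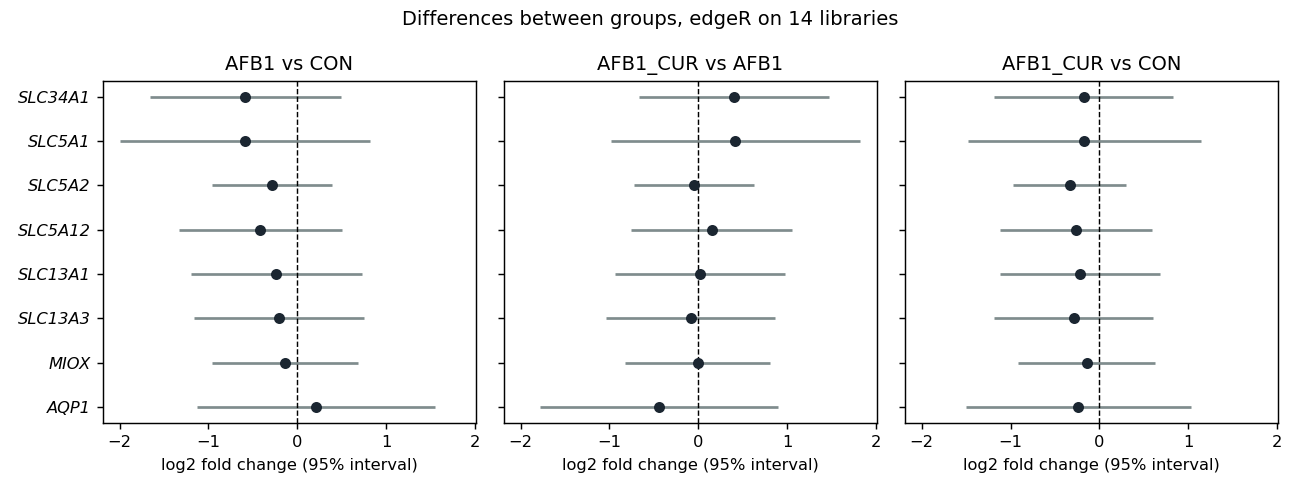
Log2 fold change of each gene (horizontal axis) with its 95% interval (line) in the 3 comparisons, from edgeR on 14 libraries. Every interval includes 0, and AFB1 against CON lies below 0 for 7 of 8 genes.

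For 7 of 8 genes (all but AQP1) the mean FPKM was highest in CON, intermediate in AFB1_CUR and lowest in AFB1, an order found in 17.7% of tested genes. With 1 library left out at a time the count ran from 2 to 7 of 8. It was 2 without AFB1_CUR replicate 3 and 4 without AFB1 replicate 2 (where AQP1 was one of the 4), CON replicate 5 or any of AFB1_CUR replicates 1, 2 and 4, against 16.0% to 20.5% of tested genes over the 14 libraries left out in turn. The log2 fold change of AFB1_CUR against AFB1 was highest for SLC5A1 (0.42) and SLC34A1 (0.41), and the mean FPKM was nearly level for SLC5A2 (298.4 ± 95.3 FPKM in AFB1_CUR, n = 5, and 295.2 ± 100.5 in AFB1, n = 4) and SLC13A3 (321.5 ± 79.6 and 317.5 ± 252.3). In the edgeR fit the order held for 4 of 8 genes, SLC34A1, SLC5A1, SLC5A12 and SLC13A1, while AFB1_CUR lay slightly below AFB1 for SLC5A2 (-0.05), SLC13A3 (-0.09) and MIOX (-0.0064). These differences were smaller than the spread between libraries, and the genes varied together across libraries, so they are not separate observations.

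The spread within groups also differed. The SD of log2(FPKM + 1) was larger in AFB1 than in CON for 8 of 8 genes, against 62.4% of tested genes, and larger in AFB1 than in AFB1_CUR for 8 of 8, against 52.0%. The genes varied together across libraries, so these counts do not rest on separate observations. For SLC13A3 the SD was 1.11 in AFB1, 0.30 in CON and 0.38 in AFB1_CUR, and for SLC5A2 it was 0.56, 0.14 and 0.55. The first count rested less on single libraries than the second. With 1 library left out at a time, the SD in AFB1 was above that of CON for 6 to 8 of 8 genes. The count was 6 without AFB1 replicate 2, against 52.5% of tested genes, and 6 without AFB1 replicate 5, against 46.4%. The SD in AFB1 was above that of AFB1_CUR for 4 of 8 without AFB1 replicate 2, against 43.2%, for 5 without AFB1 replicate 5 (37.1%) and for 5 without AFB1_CUR replicate 4 (48.9%). Across all 14 libraries, the 8 genes ranked between the 85.9th (SLC5A2) and 98.7th (AQP1) percentile of tested genes by this SD, with a highest level 2.71 (SLC5A2) to 8.27 (SLC5A1) times the lowest.

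Across libraries the genes followed 2 patterns, noticed after the values were seen and given without a test. SLC5A2, SLC5A12, SLC13A1, SLC13A3 and MIOX varied together, with Pearson's r of log2(FPKM + 1) from 0.611 to 0.872 over their 10 pairs (Spearman's rho 0.481 to 0.846, n = 14 libraries). SLC34A1, SLC5A1 and AQP1 formed the other set, with r from 0.472 to 0.793 over 3 pairs. Between the sets, r ran from -0.369 (MIOX with SLC5A1) to 0.570 (SLC5A12 with AQP1), with a median of 0.066 over 15 pairs. The division rested in part on the replicate 2 libraries of the aflatoxin-fed groups. Without them, AQP1 came closer to the first set (r = 0.891 with SLC5A12, 0.744 with SLC13A3, 0.696 with SLC13A1, 0.597 with SLC5A2 and 0.427 with MIOX). MIOX left that set (r of 0.288 to 0.438 with its other members), and the median between the sets was 0.393. SLC34A1 reached an r of 0.713 with SLC5A12. SLC34A1 and AQP1 kept an r of 0.779, and SLC34A1 and SLC5A1 one of 0.774. All points share the depth and the cell makeup of their library.

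**Figure D3:**
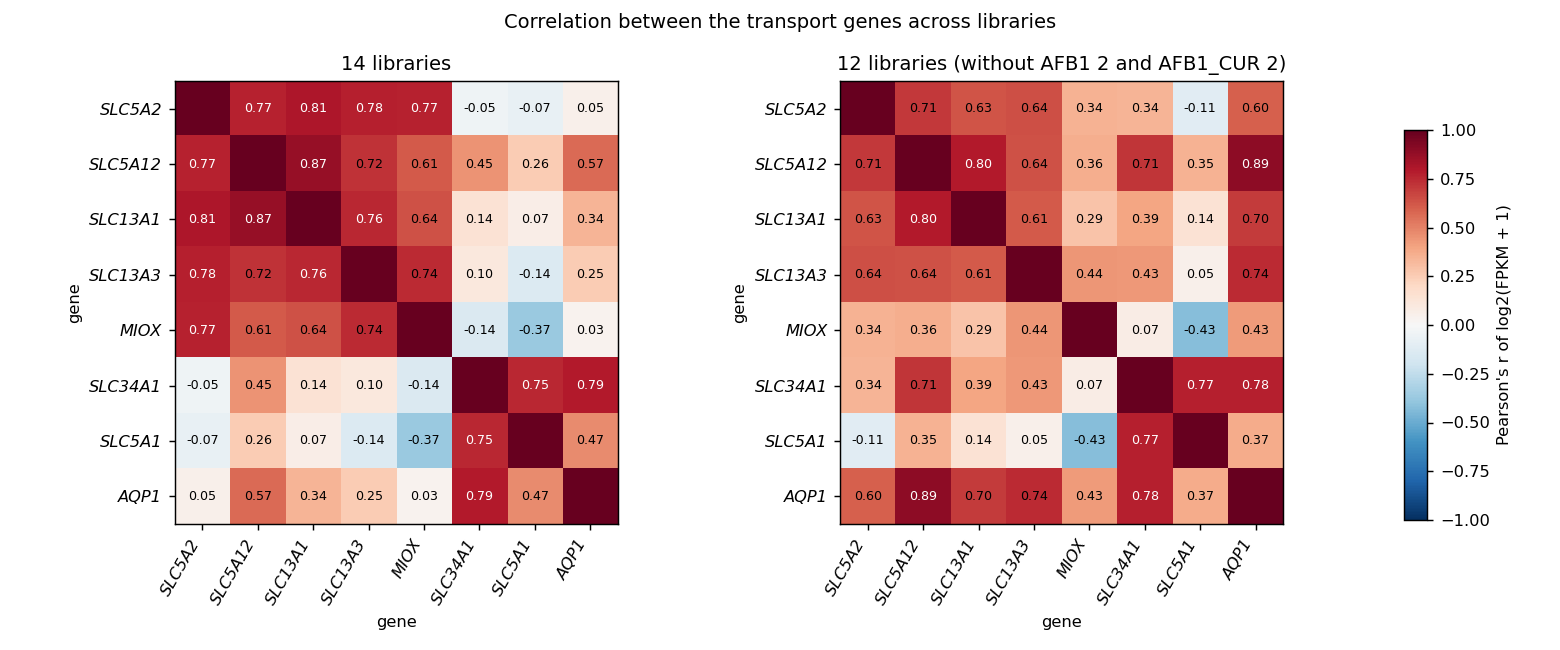
Pearson's r of log2(FPKM + 1) between the 8 genes (both axes), over 14 libraries on the left and over 12 on the right, without AFB1 replicate 2 and AFB1_CUR replicate 2. On the left SLC5A2, SLC5A12, SLC13A1, SLC13A3 and MIOX form a block of r from 0.611 to 0.872; on the right AQP1 reaches 0.891 with SLC5A12.

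The members also moved with cell type markers, each scored as the mean log2(FPKM + 1) of its list. SLC5A12, SLC5A2, SLC13A3, SLC13A1 and MIOX followed the proximal tubule score (r = 0.926, 0.906, 0.857, 0.854 and 0.714, n = 14) and ran against the immune score (r = -0.782, -0.944, -0.684, -0.820 and -0.794). Spearman's rho was 0.745 to 0.943 with the former and -0.820 to -0.692 with the latter. Leaving out the 2 libraries farthest from the median of each score, which were the same AFB1 replicate 2 and AFB1_CUR replicate 2, gave r from 0.372 (MIOX) to 0.908 (SLC5A12) and from -0.773 (SLC5A12) to -0.487 (SLC13A3). AQP1 and SLC34A1 had r of 0.378 and 0.298 with the proximal tubule score over 14 libraries and 0.855 and 0.700 over those 12. AQP1 ran against the score of 7 distal tubule and collecting duct markers (r = -0.866, and -0.833 without its 2 farthest libraries), as did SLC34A1 (r = -0.754 and -0.657). SLC5A12, SLC5A2, SLC13A3, SLC13A1 and MIOX also ran against the score of 6 endothelial markers (r = -0.737, -0.654, -0.709, -0.755 and -0.555). Without the 2 libraries farthest from the median of that score, r ran from -0.628 (SLC5A2) to -0.536 (MIOX).

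SLC5A1 had an r of 0.128 with the proximal tubule score but of 0.896 with the score of 5 thick ascending limb markers (UMOD, SLC12A1, CLDN16, KCNJ1 and CLDN10), with a Spearman's rho of 0.842, and an r of 0.899 without the 2 libraries farthest from the median of that score. SLC34A1 likewise had a higher r with the limb score (0.620, rho 0.727, and 0.759 without those 2 libraries) than with the proximal tubule score over all 14, and AQP1 had an r of 0.418 with it. For the other 5 genes, r with the limb score ran from -0.176 (MIOX) to 0.306 (SLC5A12), and without those 2 libraries from -0.602 (MIOX) to 0.0536 (SLC5A12), with -0.450 for SLC13A3 and -0.388 for SLC5A2. The highest limb scores, 6.81 in AFB1_CUR replicate 5 and 6.51 in AFB1 replicate 2, belonged to the libraries with the highest SLC5A1 levels, and the lowest, 4.74 in AFB1_CUR replicate 2, to one of the low libraries. For AFB1 against CON the 5 limb markers had a median log2 fold change of -0.155 with 3 below 0 over the 14 libraries. It was -0.40 without AFB1 replicate 2 and -0.39 without both replicate 2 libraries, each with 4 below 0 and none past the thresholds. Between AFB1_CUR and AFB1 the limb markers had a median of -0.093 with 1 above 0 over the 14 libraries. Without AFB1 replicate 2, where SLC5A1 stood at 1.48, that median was 0.64 with 3 above 0, and without both replicate 2 libraries, where SLC5A1 stood at 1.72, it was 0.85 with 5 above 0 and 1 past the thresholds. The part of segment makeup in the SLC5A1 difference between groups was not tested.

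**Figure D4:**
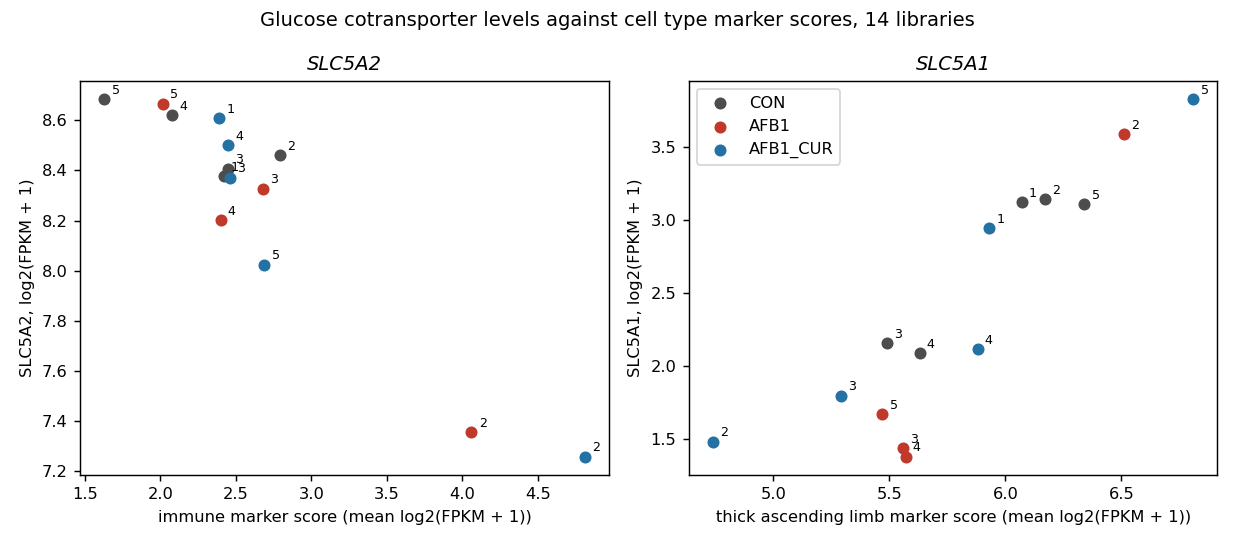
Level of SLC5A2 against the immune marker score (left) and of SLC5A1 against the thick ascending limb marker score (right) in 14 libraries, all as log2(FPKM + 1), colored by group with replicate numbers. SLC5A2 is lowest in the 2 libraries with immune scores of 4.06 and 4.81, and SLC5A1 is highest in the 2 with limb scores of 6.51 and 6.81.

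The proximal tubule score itself was 6.23 to 6.76 in CON, 5.47 to 6.68 in AFB1 and 5.39 to 6.50 in AFB1_CUR, and 7 of 7 of its genes had a log2 fold change below 0 for AFB1 against CON (median -0.37), with none past the thresholds. The median was -0.43 with all 15 libraries, where AMN, the membrane partner of cubilin, passed (-0.60, unadjusted p = 0.0381), and -0.30 without both replicate 2 libraries, with 6 of 7 below 0. Taken relative to that score within each library, the mean difference of AFB1 from CON was -0.26 for SLC34A1, -0.24 for SLC5A1, -0.08 for SLC13A3 and -0.03 for SLC5A12, and 0.10 for SLC5A2, 0.17 for SLC13A1, 0.29 for MIOX and 0.44 for AQP1, all in log2 units. Thus 4 genes lay below and 4 above 0 on this relative scale. The SD over the 4 AFB1 libraries on this scale ran from 0.21 (SLC13A1) to 1.42 (AQP1) and was larger than the difference for each gene. For AQP1 the AFB1 libraries ran from 0.03 to 3.18. How far cell makeup enters the unscaled differences was not tested.

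The genes whose levels were most like those of each member were taken by Pearson's r over 14 libraries. In the first set, SLC5A12 was closest to CUBN (r = 0.952), the endocytic receptor cubilin, C21H11orf54 (0.947) and PDZK1 (0.937), a brush border scaffold. SLC5A2 was closest to ALDH1L1 (0.958), HPD (0.947) and PPARA (0.946), and among the genes most like SLC13A1 were KMO (0.927) and the bicarbonate cotransporter SLC4A4 (0.916). SLC13A3 was most like LOC101117749 (0.938), LOC101117286 (0.929), which the table describes as the organic anion transporter SLC22A6, and SLC37A4 (0.922), while MIOX was most like LOC101117756 (0.937), PINK1 (0.934) and FAHD1 (0.916).

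In the other set, SLC5A1 was closest to the transcription factors IRX2 (0.919) and SIM2 (0.908) and to SLC12A1 (0.899), the chloride cotransporter of the thick ascending limb, which is also one of the markers in the limb score. AQP1 was closest to CANX (0.906), LOC105610833 (0.893) and SLCO4C1 (0.888). SLC34A1 was closest to PFN3 (0.915), SLCO4C1 (0.904) and TMED6 (0.889). PFN3 lies on the opposite strand at chromosome 5 from 36604400 to 36611397, so that its own end faces SLC34A1 at a distance of 1194 bases, and was low, at 0.488 to 8.24 FPKM. Without the 2 libraries farthest from the member's median, the r of the pairs named here ran from 0.757 (SLC5A2 with HPD) to 0.922 (SLC5A12 with CUBN).

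The other apical carriers and their scaffold genes were listed with earlier results of these data known, and 15 of the 17 found in the table were tested. Between AFB1 and CON, 5 of 15 passed the screening thresholds, all lower, against 1.76% of tested genes, and 14 of 15 lay below 0 (median -0.30). Those 5 were SLC34A3 and SLC34A2, both sodium-phosphate cotransporters like SLC34A1, SLC5A10 (SGLT5), which carries mannose and fructose, SLC7A9, the light subunit of the cystine and basic amino acid transporter, and SLC26A6, an anion exchanger. The highest of the list was SLC20A1, another phosphate transporter, at 0.18. With all 15 libraries, only SLC26A6 (-0.80) and SLC7A9 (-0.82) passed, against 4.84% of the genes tested in that fit, and without both replicate 2 libraries 4 of 15 did, against 1.94%. The immune markers lay the other way between the same groups, with 5 of 5 tested above 0 for AFB1 against CON (median 0.72, none past the thresholds, 2 with all 15 libraries) and for AFB1_CUR against CON (median 0.84, CD68 past them). The CD68 call was lost with all 15 libraries and without any of CON replicates 1, 2, 4 or 5, and without CON replicate 3 or AFB1_CUR replicate 2 or 5 this gene fell under the filter. Without both replicate 2 libraries the other 4 were tested, of which 3 and 4 lay above 0 (median 0.22 in both comparisons) and none passed. Of 12 hepatocyte markers tested, 11 lay below 0 for AFB1_CUR against AFB1 (median -0.22). ALB passed there (-3.75, unadjusted p = 0.0143 by edgeR's quasi-likelihood test), and its call was lost without AFB1 replicate 2 (-2.62). For AFB1 against CON 7 of 12 lay above 0 and none passed. With all 15 libraries 12 of 12 passed in both comparisons. The part of the immune and hepatocyte markers in the values of the transport genes was not tested.

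SLC34A3 (NaPi-IIc) was at 84.4, 81.1, 81.9, 100.5 and 76.0 FPKM in the CON libraries, at 41.4, 76.6, 38.6 and 48.9 in AFB1 replicates 2 to 5, and at 61.7, 35.6, 63.4, 76.0 and 34.2 in the AFB1_CUR libraries. Every AFB1_CUR library lay below every CON library, if narrowly, and 3 of 4 AFB1 libraries did. Of tested genes, 0.722% showed no overlap between AFB1_CUR and CON, and 1.63% passed the thresholds in that comparison. Its log2 fold change was -0.73 (SE 0.28, unadjusted p = 0.0196, adjusted p = 0.957) for AFB1 against CON and -0.70 (SE 0.26, unadjusted p = 0.0178, adjusted p = 0.823) for AFB1_CUR against CON, where it was the only 1 of the 15 genes past the thresholds. Leaving out AFB1 replicate 2 (-0.62) or AFB1 replicate 4 (-0.63) ended the first call, and leaving out AFB1_CUR replicate 2 (-0.54) or AFB1_CUR replicate 5 (-0.56) the second. Neither passed with all 15 libraries (-1.05 and -0.69).

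SLC34A2 (NaPi-IIb), best known from gut and lung, was low, with 1.93, 3.31, 2.08, 1.88 and 3.74 FPKM in the CON libraries and 1.63, 1.29, 1.49 and 1.40 in AFB1 replicates 2 to 5. The groups did not overlap, as was the case for 1.54% of tested genes. Its log2 fold change was -0.83 (SE 0.27, unadjusted p = 0.00898, adjusted p = 0.957), and it ran from -0.91 to -0.65 and kept its call when any 1 of the 9 libraries was left out, although with all 15 libraries it did not pass (-1.14, unadjusted p = 0.133).

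SLC5A10 was at 12.7, 7.78, 4.02, 13.8 and 29.4 FPKM in the CON libraries, at 10.6, 3.29, 2.84 and 6.17 in AFB1 replicates 2 to 5, and at 14.7, 7.12, 8.07, 21.6 and 23.3 in the AFB1_CUR libraries. The CON and AFB1 groups overlapped widely, and the AFB1_CUR libraries reached above AFB1. It was the one gene of the list past the thresholds between AFB1_CUR and AFB1 (log2 fold change 1.35, SE 0.57, unadjusted p = 0.0330, adjusted p = 1.0), against 0.935% of tested genes, and it stood at -1.27 (SE 0.57, unadjusted p = 0.0427, adjusted p = 0.957) for AFB1 against CON. The second call was lost in 6 of 9 fits with 1 library left out (without CON replicates 1, 4 or 5 or AFB1 replicates 3, 4 or 5, values from -0.77 to -1.37), and the first in 4 of 9 (without AFB1_CUR replicates 4 or 5 or AFB1 replicates 3 or 4, from 1.13 to 1.16). Neither passed with all 15 libraries (-1.59 and 1.67).

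SLC7A9 was at 26.2 to 70.5 FPKM (median 39.5) in CON and at 16.1 to 29.3 (median 23.6) in AFB1, with a log2 fold change of -0.84 (SE 0.39, unadjusted p = 0.0490). Its call was lost without any of CON replicates 1, 4 or 5 or AFB1 replicates 2, 3 or 4 (values from -0.86 to -0.57). SLC26A6 was at 2.26 to 4.10 FPKM in CON and 1.35 to 2.36 in AFB1, with a log2 fold change of -0.63 (SE 0.19, unadjusted p = 0.00598), and fell short of the fold threshold without CON replicate 1 (-0.48) or AFB1 replicate 5 (-0.52).

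**Figure D5:**
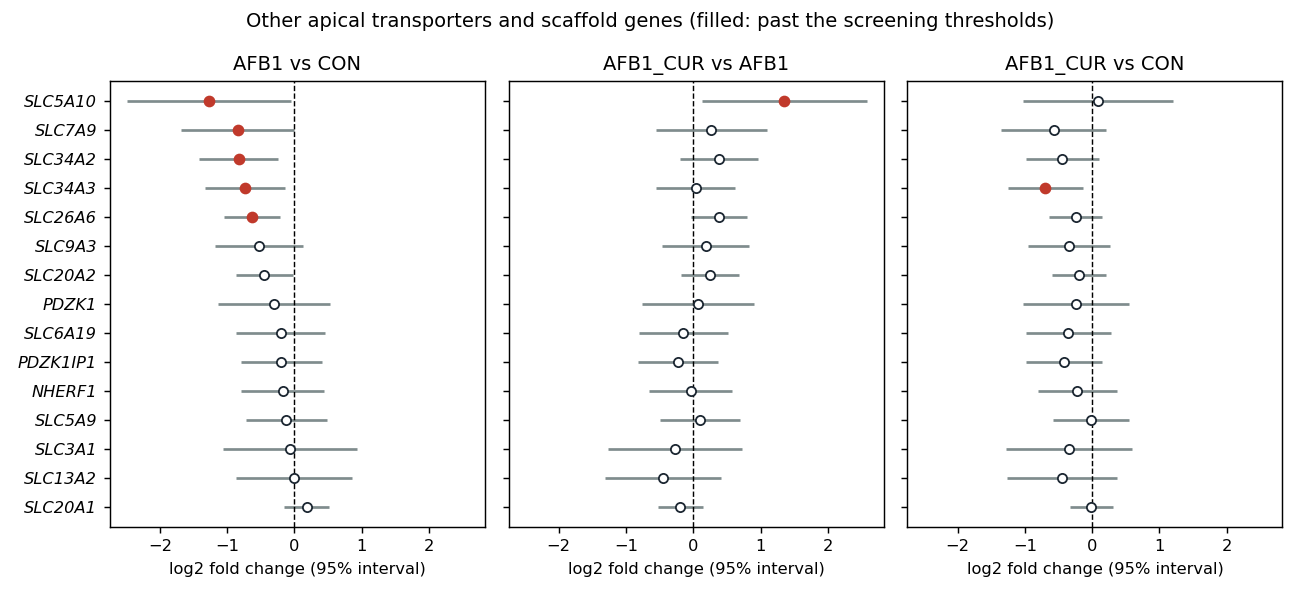
Log2 fold change (horizontal axis) with 95% interval (line) of the 15 tested apical carriers and scaffold genes in the 3 comparisons, ordered by the value of AFB1 against CON. Filled points passed the screening thresholds of unadjusted p under 0.05 and fold change over 1.5: 5 genes for AFB1 against CON, SLC5A10 for AFB1_CUR against AFB1 and SLC34A3 for AFB1_CUR against CON.

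Genes of the basolateral side and of related pathways did not pass the thresholds over the 14 libraries with edgeR, nor with all 15. Of the basolateral exit genes (the Na+/K+-ATPase, glucose and bicarbonate carriers), 0 of 8 tested passed in any comparison, and for AFB1 against CON they ran from SLC2A2 (-0.38), the proximal glucose exit carrier, to ATP1B1 (0.27), a subunit of the sodium pump, with a median of 0.07 (-0.085 with all 15). Without AFB1 replicate 5, SLC4A4 passed for AFB1_CUR against AFB1 (0.78, unadjusted p = 0.0479). Of the inositol genes, 0 of 9 tested passed (median -0.17 for AFB1 against CON, 0.0037 with all 15). SLC5A11, an apical inositol cotransporter, was lowest at -1.07 (SE 0.55, unadjusted p = 0.0716), with 5.21 to 29.3 FPKM in CON and 2.29 to 10.6 in AFB1, and ISYNA1, which makes inositol from glucose phosphate, was highest at 0.49 (SE 0.28). Other fits gave calls here. SLC5A11 passed for AFB1 against CON with DESeq2 (-1.07, unadjusted p = 0.0406) and without CON replicate 3 (-1.28) or AFB1 replicate 5 (-1.54), and the last fit also called ISYNA1 (0.71) and AKR1A1 (-0.67). SLC5A3, the sodium-inositol cotransporter, stood at 0.22 for AFB1 against CON and -0.063 for AFB1_CUR against AFB1 over the 14 libraries, and passed with the opposite signs without AFB1 replicate 2 for AFB1 against CON (-0.72) and for AFB1_CUR against AFB1 (0.88), and without both replicate 2 libraries (-0.71 and 0.93). The lowest adjusted p of these calls was 0.722, by the quasi-likelihood test of edgeR. Of the other aquaporins 3 of 9 were tested and none passed (median -0.24 for AFB1 against CON, -0.29 with all 15), from AQP7 (-0.25; 0.54 with all 15), the glycerol channel of the late proximal tubule, to AQP2 (0.03), the vasopressin-regulated channel of the collecting duct. Without the filter on low values, AQP6 passed for AFB1 against CON and AQP5, AQP6 and AQP8 for AFB1_CUR against AFB1, all with group means of at most 0.661 FPKM over the 14 libraries.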

How the data were processed

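The members and the other gene lists were chosen with earlier results of these data known. The authors trimmed paired reads of strand-marked poly(A) libraries (cutadapt 1.9), aligned them with HISAT2 2.2.1 and used StringTie 2.1.6, as the labels name them, and deposited a raw read count and an FPKM value per gene and library. Neither the counting tool and its strand setting nor the build is given in the sources used here. Groups follow the sample titles, and doses and age follow the study's methods; 0 columns were left unmapped. No sequences of these genes were used here. The counts of 13162 genes with FPKM of at least 1 in at least 5 of 14 libraries were tested with edgeR 4.0.16 (TMM, quasi-likelihood, Benjamini-Hochberg) in R 4.3.3, with 1 model for all 3 groups; AFB1 replicate 1 entered only the fit of all 15 libraries. The screening call, an unadjusted p under 0.05 with a fold change above 1.5, follows the study. The procedure was tested on simulated data, with changes well over 1.5-fold and the same spread for every gene. Its sensitivity to changes near 1.5-fold was not tested. Alternatives were all 15 libraries, only the compared groups, RLE scaling, DESeq2 1.42.0, limma 3.58.1 on log2(FPKM + 1) and log2(FPKM + 0.1), no filter, a replicate block and leaving out each library. Total counts were 50255295 or more per library, and SLC5A1, the least abundant member, had 213 to 2080 reads in the 14 libraries. Named were all 8 members, each list's called, highest and lowest genes, and the 3 genes with the highest r per member, except 1 gene that is not reported here.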

Additional observations from a re-analysis of the deposited data

Results flagged for a closer look

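Dixon's criterion at the 95% level was applied to each of the 8 genes in each group, the AFB1 group once with and once without AFB1 replicate 1, which made 32 tests, of which 3 were positive; chance gives about 1 in 20. SLC5A1 in AFB1 replicate 2, at 11.0 FPKM, stood apart from the rest of its group, the gap to its neighbour taking 93.8% of the range of 4 libraries and 77.8% of the range of 5. The same library had the second highest thick ascending limb score, 6.51, and an immune score of 4.06, and the part of either in this value was not tested. SLC5A12 in AFB1 replicate 5, at 547 FPKM, stood apart from the other 3 AFB1 libraries, with a gap of 90.4% of the range of all 4. That library had the highest proximal tubule score of the AFB1 group, 6.68, against 5.47 to 5.96 in the other 3, and its part was likewise not tested.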

How the results depend on the processing

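All 24 values of the 8 genes kept their sign and stayed short of the thresholds with RLE scaling, with DESeq2 and with only the compared groups in the fit. In the order AFB1 against CON, AFB1_CUR against AFB1 and AFB1_CUR against CON, the 232 (86 higher, 146 lower), 123 (54 higher, 69 lower) and 214 (138 higher, 76 lower) genes that passed the thresholds became 639 (506 higher, 133 lower), 525 (78 higher, 447 lower) and 131 (99 higher, 32 lower) with all 15 libraries, 105, 81 and 80 with limma on log2(FPKM + 1), 867 (445 higher, 422 lower), 707 and 928 without the filter, where more genes were tested, and 251 (92 higher, 159 lower), 207 (115 higher, 92 lower) and 115 (52 higher, 63 lower) without the replicate 2 libraries of both aflatoxin-fed groups, a setting chosen after seeing the data. On log2(FPKM + 0.1), limma called 78 higher and 56 lower between AFB1_CUR and AFB1.

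Signs turned in the following fits, in none of which the turned value passed the thresholds. With all 15 libraries they turned for AQP1 (-0.10, AFB1 against CON) and, for AFB1_CUR against AFB1, for SLC5A2 (0.27), SLC13A3 (0.21) and MIOX (0.31). With limma, at either pseudocount, they turned for AQP1 (-0.02) against CON, and for SLC5A2 (0.02), SLC13A3 (0.31), MIOX (0.13) and AQP1 (0.01) against AFB1. SLC13A1 turned to -0.00 against AFB1 without the filter. Without both replicate 2 libraries, AFB1 against CON turned for SLC13A1 (0.01), SLC13A3 (0.11), MIOX (0.14) and AQP1 (-0.10), AFB1_CUR against AFB1 for SLC13A1 (-0.02), and AFB1_CUR against CON for SLC5A1 (0.08) and MIOX (0.03), while 1 gene, SLC5A1, passed the thresholds for AFB1 against CON (-1.64) and 1, again SLC5A1, for AFB1_CUR against AFB1 (1.72). The cause was not tested.

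Same-numbered libraries did not deviate together in every pair (r from -0.309 to 0.599), although those of replicate 2 did in all 3 comparisons (r = 0.396, 0.599 and 0.438). In the same order of comparisons, 5 of 8, 3 of 8 and 3 of 10 libraries were closest to their own number. The share to be met without pairing was not computed. The numbers were not taken as pairs in the main fit. With the replicate number as a block, 228, 150 and 282 genes passed, 0 of 8 members did, and for AFB1_CUR against AFB1 the signs of SLC13A1 (-0.03), SLC13A3 (0.08) and MIOX (0.04) turned.

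With 1 library left out at a time, the genes passing ranged from 204 to 454 (454 without AFB1 replicate 5), from 122 to 261 (193 without AFB1_CUR replicate 2, 261 without AFB1 replicate 2, 221 without AFB1 replicate 5) and from 115 (without AFB1_CUR replicate 2) to 305. The members passing ranged from 0 to 2 for AFB1 against CON (SLC5A12 and SLC13A3 without AFB1 replicate 5, SLC5A1 without AFB1 replicate 2) and from 0 to 1 for AFB1_CUR against AFB1 (SLC5A1 without AFB1 replicate 2). Of 224 member values, 37 changed sign. For AFB1 against CON the log2 fold changes ran from -0.74 to 0.08 (SLC13A1), -0.98 to 0.09 (SLC13A3), -0.35 to 0.13 (MIOX) and -0.24 to 0.58 (AQP1). For AFB1_CUR against AFB1 they ran from -0.18 to 1.48 (SLC5A1), -0.27 to 0.20 (SLC5A2), -0.04 to 0.73 (SLC5A12), -0.29 to 0.52 (SLC13A1), -0.38 to 0.69 (SLC13A3), -0.27 to 0.21 (MIOX) and -0.78 to 0.01 (AQP1), and for AFB1_CUR against CON from -0.36 to 0.07 (SLC34A1), -0.76 to 0.07 (SLC5A1), -0.45 to 0.03 (SLC5A12), -0.53 to 0.10 (SLC13A1), -0.31 to 0.08 (MIOX) and -0.50 to 0.14 (AQP1). With 4 or 5 libraries a group, the number of libraries limits the precision.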
